A study of Mus musculus with 1 sample.

Results

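The cytosolic ribosomal protein genes were the 83 of 23282 gene rows whose symbol was Rpl or Rps followed by a number, with or without an ending of a, l, x or l1, or was Rplp0, Rplp1, Rplp2 or Rpsa. They comprised 46 canonical genes of the large subunit, 30 canonical genes of the small subunit and 7 paralogs, which are Rpl3l, Rpl7l1, Rpl10l, Rpl22l1, Rpl39l, Rps4l and Rps27l. The genes were chosen by a rule on names that does not use their values, though with earlier results of these data known. Some proteins of the cytosolic ribosome have names outside this rule, and these were read separately: Rps3a1, Fau, Gnb2l1, Rpl36al and Rps27rt. Genes of the S6 kinases, whose symbols also begin with Rps, were not matched.

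The data were 1 RNA-seq library of primary mixed glia from the ventral midbrain (VM) of ICR(CD-1) outbred mice at postnatal day 5, labelled as the control (by the study's account, given the vehicle dimethyl sulfoxide) of a study of serum- and glucocorticoid-regulated kinase 1 (SGK1) inhibition. The culture was not sorted, so each value was the sum over astrocytes, microglia and any other cells present, and the amount of RNA per cell cannot be told apart from the number of cells of a type. Astrocyte and microglia markers were all present: Gfap, an astrocyte filament gene, had a value of 17222 and Csf1r, a receptor of microglia, a value of 31413. With 1 library and no replicate there is no error on any value, no test was possible, and every difference given here is a description of that library.

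The unit was the authors' normalised read count per gene, a whole number whose normalisation is not given in the sources used here. The sum over all rows was 27569507, which stands in place of a depth. Because a longer transcript gives more reads at the same number of molecules, each value was also divided by the length of the gene's principal annotated transcript and expressed per 1 kb. An order of genes on the deposited scale describes the table only, and levels of different genes are compared per 1 kb.

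The ribosome of the cytosol joins amino acids into protein and consists of a large and a small subunit. Each subunit is a shell of proteins around ribosomal RNA, and with few exceptions each protein is present in a single copy. The small subunit reads the mRNA, the large subunit makes the peptide bond, and the mRNAs of these proteins carry a run of pyrimidines at their start, the terminal oligopyrimidine (TOP) tract, through which their translation follows the growth state of the cell. In mammals nearly every one of these genes has many processed pseudogenes, copies of the spliced mRNA inserted elsewhere in the genome.

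Start sites of 7 genes with a tract and of 2 paralogs without one at the annotated start show this feature. Each line gives the 10 bases before the annotated start and the 20 bases from it (GRCm38.p6, RefSeq), with the C at the start and the pyrimidines that follow it in capitals. Rps6 (chr4:86857348-86857377, minus strand), Rpl35 (chr2:39005112-39005141, minus), Rpl15 (chr14:18270967-18270996, minus), Rps10 (chr17:27635225-27635254, minus), Rpl28 (chr7:4792955-4792984, plus), Rplp2 (chr7:141447641-141447670, plus) and Rps27 (chr3:90213629-90213658, minus) had a tract at that base, and the paralogs Rpl22l1 (chr3:28805498-28805527, plus) and Rps27l (chr9:66946076-66946105, plus) did not.
Rps6: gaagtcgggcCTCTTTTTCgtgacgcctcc
Rpl35: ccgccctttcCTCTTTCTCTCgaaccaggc
Rpl15: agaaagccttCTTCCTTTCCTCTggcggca
Rps10: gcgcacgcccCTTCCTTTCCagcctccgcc
Rpl28: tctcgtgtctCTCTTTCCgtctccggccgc
Rplp2: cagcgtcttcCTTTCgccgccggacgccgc
Rps27: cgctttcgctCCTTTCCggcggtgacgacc
Rpl22l1: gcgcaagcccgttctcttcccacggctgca
Rps27l: cctccccgccgcctctatcccggaagttgc

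Of the canonical genes, 56 matched the promoter table, and 13 of them (23.2%) had a C followed by 4 pyrimidines exactly at an annotated start, where 813 of 27025 genes in the whole table (3.01%) did. None of the 6 paralogs with a promoter had one. The longest run was that of Rpl15, with 13 pyrimidines, and Rpl35 had 11. The share also differed from that of the mitochondrial ribosomal proteins, a separate set of genes that build the ribosome of mitochondria: none of 68 had a tract at the start. Among 11 translation factors and other mRNAs known to carry TOP tracts, 3 did. When the C was allowed within 5 bases on either side of the start, the share became 48.2% for the canonical genes, 33.3% for the paralogs, 17 of 68 for the mitochondrial set and 21.2% for all genes. The paralogs counted there were Rpl22l1 and Rps27l, whose starts are printed above. A missing match says only that these letters were not at that base.

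**Figure D1:**
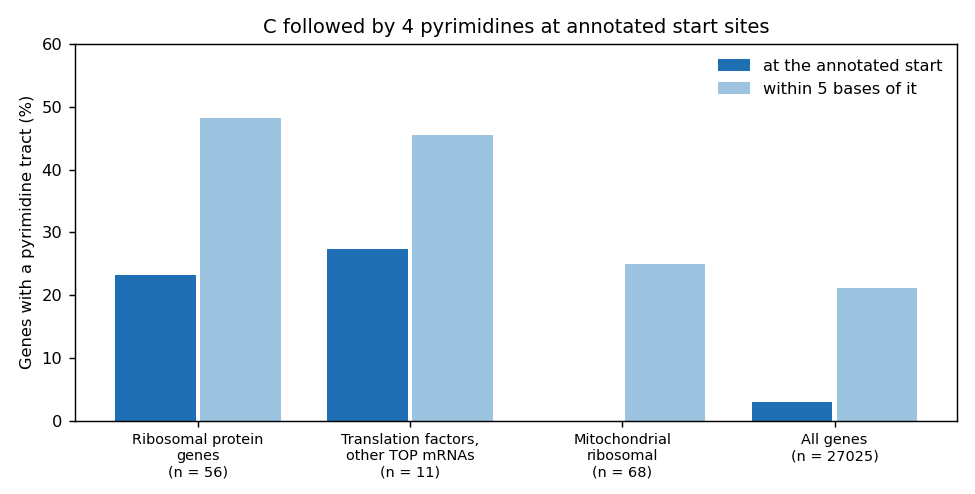
Percent of genes (vertical axis) with C followed by 4 pyrimidines at the annotated start (dark bars) or starting within 5 bases of it (light bars), in 4 groups of genes with n given under each. At the exact start the canonical ribosomal protein genes stand at 23.2% and all genes at 3.01%, and no mitochondrial ribosomal protein gene has a tract.

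The same promoters (250 bases before to 50 bases after the start) were searched for CGGAAG on either strand, the core letters bound by ETS factors such as GABPA. It was present in 39 of 56 canonical genes (69.6%), in 2 of 6 paralogs (33.3%), in 55.9% of the mitochondrial set and in 18.8% of all genes. On the opposite strand these letters read CTTCCG and can share bases with a pyrimidine tract. The deposited value did not run higher with a tract at the start: the median was 10506 over the 13 canonical genes that had one and 16849 over the 43 that did not. That order describes the deposited scale only, and the groups were not compared per 1 kb.

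All 76 canonical genes were high in the glia. Each had a deposited value above 1000, from 2462 for Rps27 to 75110 for Rpl26, with a median of 16812.5, which was 35.8 times the median of 469 over the 15648 rows at 10 or more. Of the 83 genes, 81 had a value of 10 or more, beside 67.2% of all rows. A value of 1000 or more was reached by 79 of them, beside 21.5% of all rows, and 77 were among the highest 10.0% of rows. The members outside those counts were paralogs. Per 1 kb of transcript, 35 canonical genes were among the 100 highest genes, 65 among the 200 highest and 75 among the 500 highest of 22900 genes with a length. The exception was Rps20, at place 841.

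Together the 83 genes made up 0.356% of the rows and 6.12% of the sum of all values. The large subunit accounted for 4.28%, the small subunit for 1.82% and the paralogs for 0.0232%. Their sum of 1688609 was 2.58 times the value of Rn45s, the precursor of the ribosomal RNAs, which was 655499. That ratio describes the library, which was made with an mRNA kit, and not the RNA content of the cells.

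The median level of the large subunit genes was above that of the small subunit genes. Per 1 kb of transcript the medians were 25375 and 18622, a ratio of 1.36. On the deposited scale they were 21957 and 11666, a ratio of 1.88, and 40 of 46 large subunit genes and 19 of 30 small subunit genes reached 10000. Per 1 kb of coding sequence the ratio was 1.48. The ranges overlapped widely on each scale: the lowest large subunit gene by deposited value, Rpl30 at 6740, lay below 28 of the 30 small subunit genes.

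**Figure D2:**
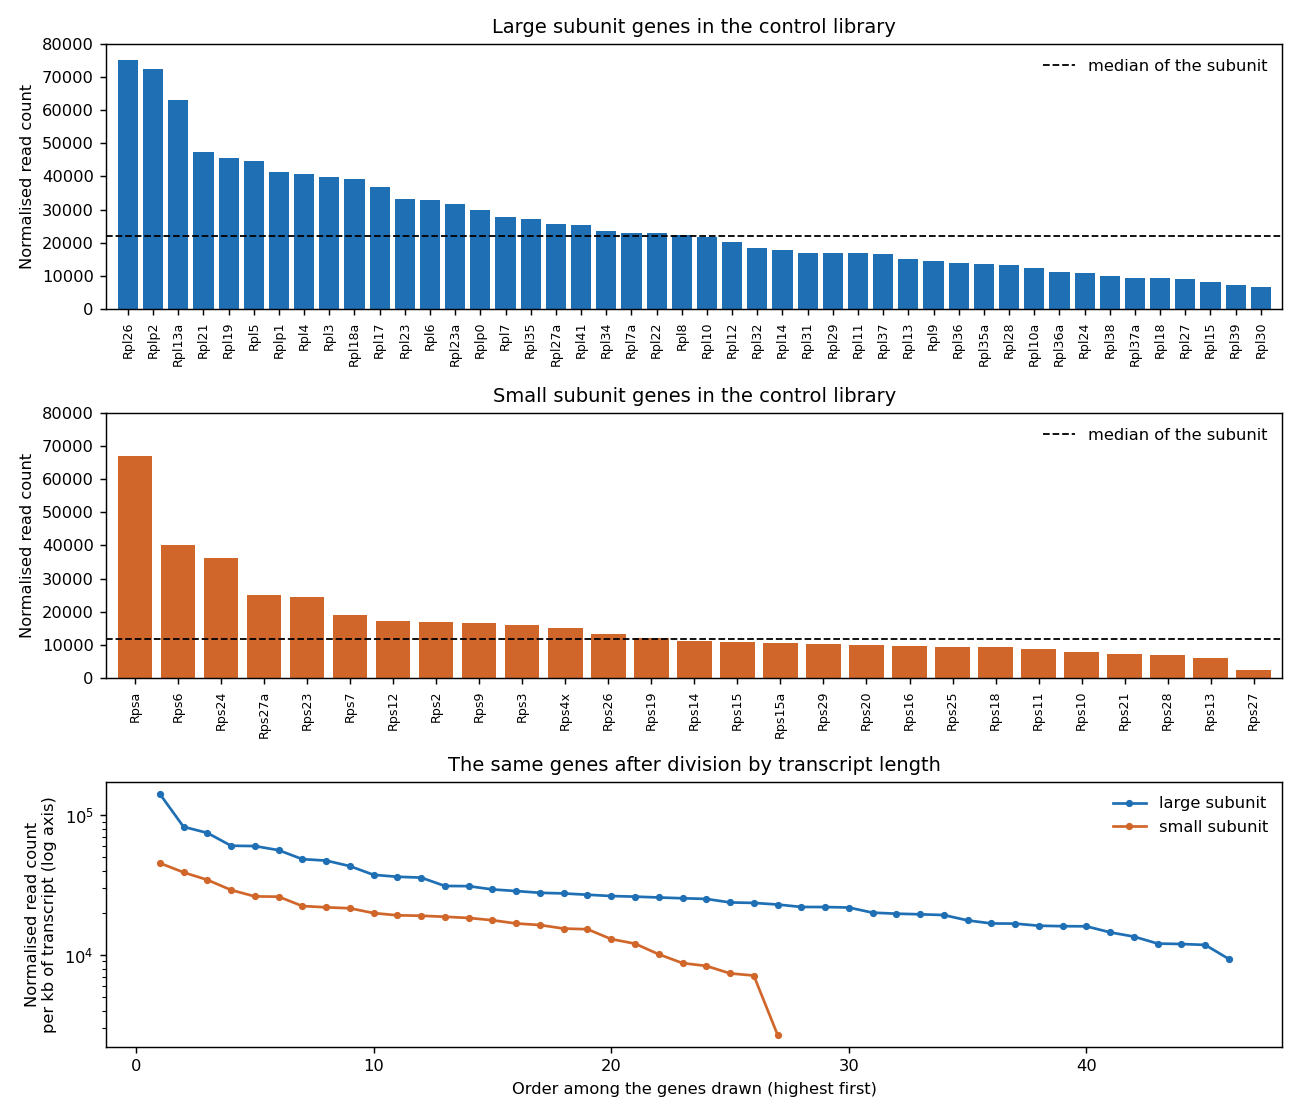
Normalised read count of the 46 large subunit genes (top) and of 27 small subunit genes (middle), each from highest to lowest with the median of the whole subunit dashed, and the same genes in order of the normalised read count per 1 kb of transcript on a log axis (bottom). The deposited values run from 75110 (Rpl26) to 6740 (Rpl30) in the large subunit and from 67001 (Rpsa) to 2462 (Rps27) in the small, and the point at the lower end of the small subunit curve in the bottom panel is Rps20 at 2687.

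The highest gene of the large subunit was Rpl26, which encodes a protein beside the exit of the peptide tunnel. Its deposited value was 75110 and its level per 1 kb was 142795, which was the highest of the canonical genes on both scales. Next in deposited value came Rplp2 at 72318, Rpl13a at 63170, Rpl21 at 47351 and Rpl19 at 45572. Per 1 kb the order of the large subunit genes behind Rpl26 changed to Rplp1 (82920), Rplp2 (75019), Rpl19 (60682) and Rpl13a (60334). Rpl21 dropped out of the leading group, at 25512 per 1 kb, its transcript being 1856 bases long. Per 1 kb of coding sequence Rpl21 had 98648. On that scale Rpl41, with a coding sequence of 75 bases, was the highest canonical gene at 336467. The lowest of the large subunit in deposited value were Rpl30 (6740), Rpl39 (7344), Rpl15 (8263), Rpl27 (8928) and Rpl18 (9206). Per 1 kb Rpl15 was the lowest of them at 9358.

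In the small subunit Rpsa, which also gives rise to the laminin receptor, was highest in deposited value at 67001. It was followed by Rps6, the substrate of the S6 kinases, at 40049, and by Rps24 at 36205. Rps27a, which is made as a fusion to ubiquitin, had 24914. On the scale per 1 kb Rps6 had 45614, Rps27a 39111, Rpsa, with a principal transcript of 1938 bases, 34572, and Rps24 22446. Among the lowest deposited values were Rps27 (2462), Rps13 (5966), Rps28 (6964) and Rps21 (7265). Per 1 kb the lowest were Rps20 (2687), Rps27 (7136), Rps25 (7390), Rps3 (8363) and Rps16 (8756). The place of Rps20 turned on the annotation, because its principal transcript of 3706 bases holds a coding sequence of 357 bases. Per 1 kb of coding sequence it had 27896, near the small subunit median of 27862 on that scale, and Rps27 was the lowest of all canonical genes at 9770. The low places of Rps25, Rps3 and Rps16 also depended on the length used. Per 1 kb of coding sequence they had 25224, 21889 and 22169.

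The P stalk is the flexible arm of the large subunit that recruits the elongation factors, with Rplp0 as its base, Rplp1 and Rplp2 as its acidic tips and Rpl12 beside it. Its tips are present in more copies per ribosome than other ribosomal proteins. Whether the mRNA values of these genes are related to that copy number was not tested. The deposited values were 41377 for Rplp1, 72318 for Rplp2, 30017 for Rplp0 and 20148 for Rpl12. On the scale per 1 kb Rplp1 and Rplp2, at 82920 and 75019, lay above Rplp0 at 22104 and Rpl12 at 16222. Per 1 kb, Rplp1 and Rplp2 thus stood 3.75 and 3.39 times above Rplp0, and 1.11-fold apart from each other. Per 1 kb of coding sequence the tips were further apart and in the other order. Rplp2 had 209617 and Rplp1 120985, beside 31564 for Rplp0.

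Rpl5 and Rpl11 bind the 5S ribosomal RNA and, when ribosome assembly fails, hold back the p53 regulator Mdm2. Rpl5 had a deposited value of 44783 and Rpl11 one of 16760. Per 1 kb the pair was close, at 21899 and 20120, since the Rpl5 transcript is 2045 bases long. That closeness depended on the length used: per 1 kb of coding sequence Rpl5 had 50262 and Rpl11 31386. Among the genes that reach towards the site of peptide bond formation, Rpl3 had 39882, Rpl8 had 22305 and Rpl10 had 21609. These 3 were also close on the scale per 1 kb, with 29520, 26210 and 27045.

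The 9 genes around the peptide exit tunnel covered a wide range. Rpl26 was the highest at 142795 per 1 kb, followed by Rpl19 at 60682, Rpl23a at 56411, Rpl22 at 48620 and Rpl17 at 47511. Rpl35 had 28740, Rpl4 had 26481 and Rpl31 had 16062. Rpl39, whose small protein lines the tunnel, was the lowest of them at 12000 per 1 kb and a deposited value of 7344. The levels per 1 kb of these 9 genes were thus up to 11.9-fold apart, and their order depended on the length used. Per 1 kb of coding sequence Rpl26 had 172667 and Rpl39 48000, and the lowest of the 9 was Rpl4 at 32401.

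Loss of 1 copy of some ribosomal protein genes causes Diamond-Blackfan anaemia, a failure of red cell production in humans. Of 10 such genes examined, Rpl26 had a deposited value of 75110, Rpl5 of 44783, Rps24 of 36205 and Rps7 of 19063. Lower values were 16760 for Rpl11, 13711 for Rpl35a, 13120 for Rps26, 12105 for Rps19 and 7774 for Rps10. The median deposited value of the 10 was 17911.5, beside 16812.5 for all canonical genes. The 10 ran from 7774 to 75110 and all canonical genes from 2462 to 75110, so the set did not include the lowest values. Rps19, the gene most often affected in that disease, had 19123 per 1 kb, beside the small subunit median of 18622.

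The ribosomal proteins named outside the rule lay in the range of the canonical genes. Fau, which encodes the small subunit protein eS30 as a fusion to a ubiquitin-like protein, had a deposited value of 36810 and 72461 per 1 kb. Rps3a, listed as Rps3a1, had a deposited value of 22193 and 22715 per 1 kb. Rack1, a scaffold on the head of the small subunit listed as Gnb2l1, had 16245 and 11227 per 1 kb.

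Most canonical genes lay within a few-fold of each other. The SD of the log2 deposited values over the 76 canonical genes was 0.97, their 90th percentile was 5.12 times their 10th percentile, and the highest gene was 30.5 times the lowest. A total of 52 genes (68.4%) lay within 2-fold of the median. Per 1 kb of transcript the SD was 0.90, the ratio of the percentiles 4.38 and the share within 2-fold of the median 76.3%. The 10 genes of highest deposited value held 31.9% of the canonical sum, beside 13.2% if all had been equal, and the 5 highest held 19.3%.

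Within the large subunit the SD was 0.89 and the ratio of the percentiles 4.86, and within the small subunit 0.96 and 4.83. All rows at 10 or more had an SD of 2.53 and a ratio of 109, with 4696 of the 15648 within 2-fold of their median. The mitochondrial ribosomal proteins, 77 genes with a median of 1016 and a range from 171 (Mrps12) to 5544 (Mrpl52), had an SD of 0.88 and a ratio of 5.28 on the deposited scale, and 1.35 and 10.3 per 1 kb. By these 2 measures the kinds of ribosomal protein genes were about equally even on the deposited scale, and the cytosolic set was the more even per 1 kb. The interquartile range of the log2 deposited values was wider in the cytosolic set, 1.44 beside 0.93 in the mitochondrial set. Per 1 kb that range was narrower in the cytosolic set, 0.86 beside 1.90.

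Other complexes with fixed subunit numbers gave values on both sides. The 8 genes of the CCT chaperonin, which folds actin and tubulin, had an SD of 0.60 and a ratio of 2.37 on the deposited scale, from Cct4 (2766) to Cct2 (9648). The 14 genes of the 20S proteasome core had 0.92 and 4.08, from Psmb5 (1193) to Psma3 (11373). The 13 genes of the initiation factor eIF3 had an SD of 1.92, which rested on Eif3j1 at 69, and a ratio of 4.02. Ribosome biogenesis genes, 20 in number, had a median of 1379 and a ratio of 15.3, from Polr1b (193) to Ncl (24166), and 17 translation factors and other TOP mRNAs had a median of 12256 and a ratio of 14.8, from Gas5 (1021) to Eef1a1 (108996). Per 1 kb the SD and the ratio were 0.68 and 2.51 for CCT, 0.84 and 4.93 for the proteasome core and 2.29 and 2.50 for eIF3. They were 1.97 and 15.5 for the biogenesis genes and 1.74 and 24.1 for the TOP list. On both scales the spread of the ribosomal protein genes was thus wider than in CCT and narrower than in the biogenesis and TOP lists by these measures. Against the proteasome core the order depended on the measure: per 1 kb the SD of the ribosomal protein genes was the larger (0.90 and 0.84) but their ratio was the smaller (4.38 and 4.93). Against eIF3 it also depended on the measure: on both scales the SD of the ribosomal protein genes was the smaller and their ratio the larger (4.38 and 2.50 per 1 kb).

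**Figure D3:**
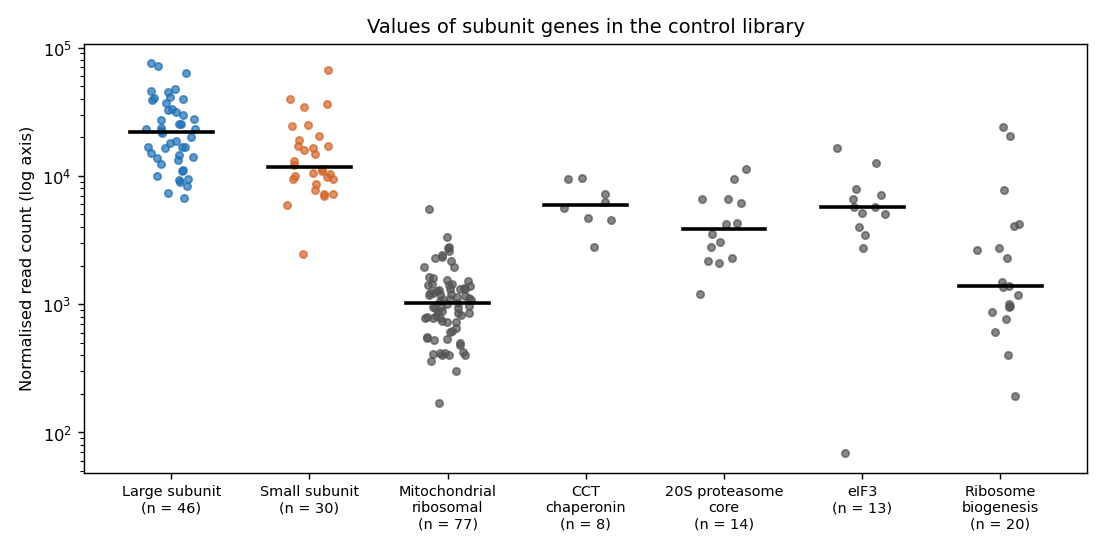
Normalised read count on a log axis for the large and small subunit genes and for 5 comparison lists, with 1 point per gene, the number of genes under each list and the median as a black bar. The medians are 21957 and 11666 for the cytosolic subunits and 1016 for the mitochondrial ribosomal proteins, and the lone point at the bottom of the eIF3 list is Eif3j1 at 69.

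Some mammalian ribosomal proteins have a paralog that can take their place, often in muscle, testis or dividing cells. In the glia the canonical gene exceeded its paralog in all 7 pairs within the rule, on the deposited scale and per 1 kb. Rpl3l, the striated muscle form of Rpl3, had a deposited value of 25 where Rpl3 had 39882, and 18.2 beside 29520 per 1 kb. Rpl10l, best known from testis, was listed at 0, where Rpl10 had 21609. Rpl39l, also a testis form, had 6 where Rpl39 had 7344, and 7.45 beside 12000 per 1 kb. Rps4l, annotated as a transcribed processed pseudogene, had 98 where Rps4x had 14928, and 104 beside 15311 per 1 kb. The gap per 1 kb was over 100-fold in each of these pairs with a value above 0.

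Rpl22l1, a paralog that shares the RNA-binding fold of Rpl22, had 1015 beside 23046 for Rpl22, and 1839 beside 48620 per 1 kb. It made up 4.22% of the deposited values of that pair. Rpl7l1, which works in large subunit assembly, had 3332 beside 27703 for Rpl7, a ratio of 8.31 that became 18.6 per 1 kb because the Rpl7l1 transcript is 2606 bases long. The coding sequences of these 2 pairs were 66.9% and 53.0% identical, the lowest identities among the paralogs compared.

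Rps27 and Rps27l were the exception to a wide gap. Rps27 had a deposited value of 2462 and Rps27l, known as a target of p53, had 1924, so that Rps27l held 43.9% of the pair, and the ratio was 1.28, or 1.85 per 1 kb. Rps27rt, a retrocopy of Rps27 without introns (chr9:114982366-114982739, minus strand), had 9464 in the same library, which was 79.4% of the sum of Rps27 and its retrocopy, and per 1 kb Rps27rt had 25305 and Rps27 7136. Rps27 was the lowest canonical gene. The coding sequences of Rps27 (chr3:90212522-90213651, minus strand, 4 exons) and Rps27rt were identical at all 252 bases. Those of Rps27 and Rps27l (chr9:66946086-66949516, plus strand) differed at 60 of 252. The sequences of Rps27 and Rps27l are printed here because a read inside the identical pair cannot be assigned to 1 gene by its sequence, while the capitals, which mark bases of Rps27l that differ from Rps27, lie along the whole length of Rps27l.
Rps27: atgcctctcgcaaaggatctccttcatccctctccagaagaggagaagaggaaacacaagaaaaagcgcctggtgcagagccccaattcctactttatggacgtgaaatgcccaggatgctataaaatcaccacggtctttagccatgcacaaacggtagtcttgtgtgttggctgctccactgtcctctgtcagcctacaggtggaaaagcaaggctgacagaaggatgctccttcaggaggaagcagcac
Rps27l: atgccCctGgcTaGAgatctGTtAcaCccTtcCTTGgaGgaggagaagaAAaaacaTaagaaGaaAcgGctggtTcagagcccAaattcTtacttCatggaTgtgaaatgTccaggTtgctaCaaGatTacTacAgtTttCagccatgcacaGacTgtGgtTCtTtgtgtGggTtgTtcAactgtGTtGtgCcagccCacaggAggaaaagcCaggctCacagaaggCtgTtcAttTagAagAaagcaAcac
How the authors' counting treated reads that map to both Rps27 and Rps27rt is not given in the sources used here, so the values of these genes are uncertain, and the part that shared reads had in them was not tested. The same holds for the place of Rps27 as the lowest canonical gene and for its ratio to Rps27l.

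Further pairs named by the design lay between these extremes. Rpl36a had 11117 and Rpl36al, a retrocopy that is itself a functional gene, 5010, a ratio of 2.22, or 2.42 per 1 kb, with 87.7% identical coding sequence. Rpl37 had 16524 and its retrocopy Rpl37rt 1740, a ratio of 9.50, or 7.76 per 1 kb. Genes that share only a number in their names encode unrelated proteins and showed no common order: Rpl13a exceeded Rpl13 (60334 and 19346 per 1 kb), Rpl7 and Rpl7a were close (23820 and 25239 per 1 kb), and Rpl10 exceeded Rpl10a (27045 and 16841 per 1 kb).

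**Figure D4:**
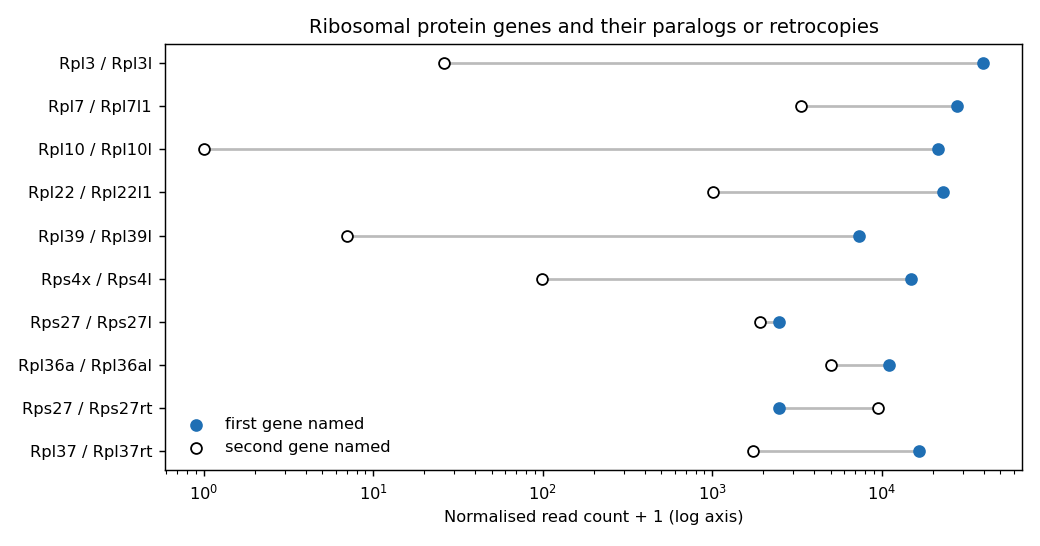
Normalised read count plus 1 on a log axis for 10 pairs of a ribosomal protein gene (filled points) and its paralog or retrocopy (open points), joined by a line. The filled point lies to the right in every pair but Rps27 with Rps27rt (2462 and 9464), and the shortest line is that of Rps27 with Rps27l (2462 and 1924).

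How far the values could be shared with copies was measured by the percent of 50-base windows of each principal transcript that occurred exactly in an annotated transcript of another gene. The median over the 76 canonical genes was 50%. The range ran from 0 to 98.7% for Rps27, 38 genes had 50% or more, and 3 had 90% or more, which were Rps27, Rpl9 (93.3%) and Rpl10 (92.1%). The number of annotated pseudogenes sharing at least 1 window ran from 0 to 120 (Rpl7a), with a median of 8.5.

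The deposited values had similar medians at low and high shares across the canonical genes. The median deposited value was 16516 over the 28 genes with under 40% of windows copied, 17325 over the 24 genes from 40% to 70%, and 17006 over the 24 genes with 70% or more. Spearman's rho between the copied percent and the deposited value was -0.0226 over 76 genes and 0.116 with the value per 1 kb. These points share a library and are not independent replicates. Transcript length had a rho of 0.446 with the deposited value and -0.129 with the value per 1 kb.

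**Figure D5:**
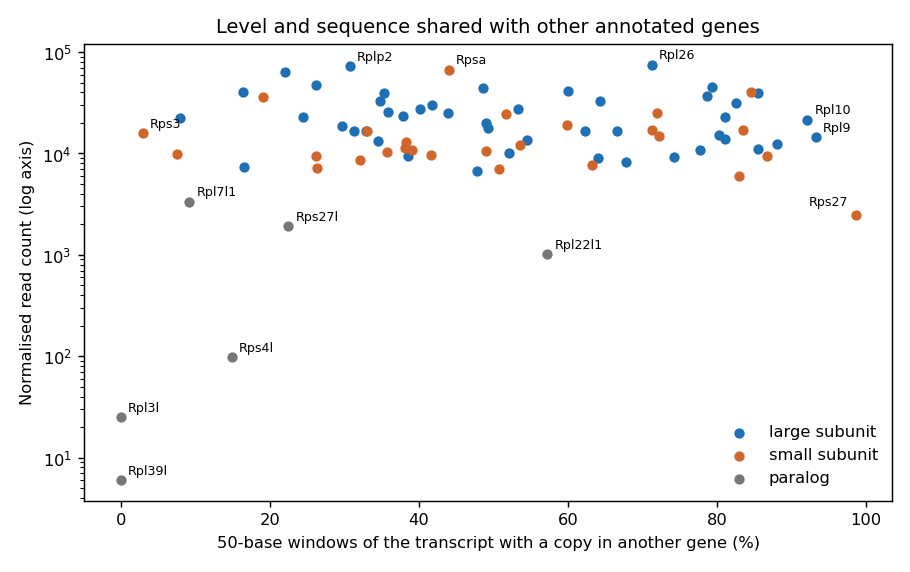
Normalised read count on a log axis against the percent of 50-base windows of the principal transcript with an exact copy in another annotated gene, 1 point per gene for the 46 large subunit genes, 27 small subunit genes and 6 paralogs, without Rpl10l, which was listed at 0. The canonical genes spread over nearly the whole horizontal range, from Rps3 at 2.96% to Rps27 at 98.7%, with values from 2462 (Rps27) to 75110 (Rpl26). The paralogs lie at 3332 (Rpl7l1) or below, and of the canonical genes only Rps27 lies below Rpl7l1.

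Of 1081 annotated pseudogenes that share a window with a canonical gene, 16 had a row. Their values summed to 18828, which was 1.12% of the canonical sum. The highest was Gm12191, a processed pseudogene of Rpl30 on chromosome 11, at 5531, which was 82.1% of the 6740 of Rpl30 itself. Rpl34-ps1 followed at 4952, or 21.1% of Rpl34, then Rpl37rt at 1740, Gm8580 at 1700 (a pseudogene of Rpl29) and Gm15772 at 1333 (of Rpl26). Rpl30 was the lowest large subunit gene on the deposited scale, and it had the pseudogene with the highest value. Whether reads of Rpl30 were counted to that pseudogene was not tested.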

How the data were processed

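RNA was extracted with Trizol from VM-derived mixed glia and the library was made from total RNA with a SMARTer mRNA-Seq kit. According to the methods, reads were trimmed at a quality of 20, mapped to GRCm38/mm10 with STAR and counted on exons of RefSeq Release 105 genes with HTSeq-count, whereas the submitters' processing notes name TopHat and edgeR. The strand setting and the treatment of multi-mapped reads are not given in the sources used here. The deposited values are the authors' normalised read counts, whole numbers handled here as a score and not as raw counts, so no count model, confidence interval or detection limit was used. The number of sequenced reads is unknown.

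Rows were selected by symbol. The members and the comparison lists were chosen with earlier results of these data known. The genes named were the 5 highest and lowest of each subunit by value and by value per length, both genes of each pair, the genes of the functional lists, those outside the naming rule, and the 5 highest pseudogene rows; some genes that this rule names are not reported here, but they enter the counts and medians. Lengths, coordinates and coding sequences came from GENCODE M21 (GRCm38), taking the coding transcript of best APPRIS level, and start sites from RefSeq promoters on GRCm38.p6. These annotations are not the release the authors counted on. A search of the whole genome had been planned, but no genome sequence was used here, and copies were sought in annotated transcripts of other genes that do not overlap the locus. The window search was tested on simulated data. Coding sequences were aligned globally. Strand being unknown, reads of overlapping genes cannot be told apart: exons of 19 of the 83 genes overlapped a gene on the opposite strand and those of 27 a gene on the same strand. Alternatives were length division, other minima, window sizes, subsets and pseudocounts. Python 3.11.15, pandas 2.3.3, numpy 2.4.6, scipy 1.17.1 and matplotlib 3.10.9 were used.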

Additional observations from a re-analysis of the deposited data

How the results depend on the processing

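The values rest on 1 library, so no replicate could be left out and no paired analysis was possible because there was no second sample. With neither replicates nor raw counts, a level was taken as moved when it changed by over 10%, a log2 value or a rho by over 0.1. Without the 10 highest rows the members' share of the sum was 7.07%, beside 6.12%. The SD of log2 values (0.97) was 0.72 over the 4 canonical genes with under 10% of windows copied, and 0.84 per transcript length without Rps20. The ratio of the 90th to the 10th percentile (5.12) was 4.38 per transcript length, 4.32 per coding length, 4.05 per transcript length without Rps20 and 2.55 over the genes with under 10% copied. The large to small subunit ratio (1.88) was 1.36 per transcript length, 1.48 per coding length and 2.20 over genes with under 40% copied. The rho of copied share and value (-0.0226) was 0.116 per transcript length, and the share with a start tract (23.2%) was 48.2% within 5 bases. Division by transcript length turned the order of Rpl7 and Rpl7a (ratio 1.20 deposited, 0.944 per 1 kb) and of Rplp1 and Rplp2 (41377 and 72318 deposited, 82920 and 75019 per 1 kb). Division by coding length kept the deposited order in both pairs (34201 and 28907 for Rpl7 and Rpl7a, 120985 and 209617 for Rplp1 and Rplp2). The settings by coding length, without Rps20, without Rps27 and with under 40% copied, and the rho per transcript length, were chosen after seeing the data. Beyond the numbers of genes and bases that a setting leaves, the cause was not tested. Normalisation, strand and multi-mapped reads limit all values.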

Other observations

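Ribosomal protein genes also host small nucleolar RNAs (snoRNAs), which guide the chemical modification of ribosomal RNA and are cut from introns of their host. Of the 83 genes, 29 (34.9%) had at least 1 annotated snoRNA gene inside them on the same strand, 56 snoRNA genes in all (57 on either strand), where 248 of 20503 protein-coding rows (1.21%) had one. Rpl4 held 5 of them and Rpl13a 4. By name, 30 of the 56 had a row of their own, and 29 of these had a value of 10 or more. Their values ran from 5 to 19955 with a median of 1571.5. The highest was Snora52 at 19955, which lies within Rplp2, a gene with a value of 72318. In Rpl13a, with a value of 63170, Snord35a had 12270, Snord34 had 11427, Snord33 had 3841 and Snord32a had 493. A snoRNA gene is short, the library was made with an mRNA kit and the strand setting is unknown, so reads of a host's unspliced or retained sequence and of the snoRNA itself cannot be told apart in these values.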
